A study of Mus musculus with 12 samples.

Results

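The comparison described here is the 8 h response of mouse embryonic stem cells to doxycycline (dox) when it switches on a Tcf15-E47 fusion, after subtraction of the response of the parental cells to the same dox. It is the difference (Tcf15-E47 8 h minus 0 h) minus (parental 8 h minus 0 h), and it used 8 of the 12 arrays of the series, which were chosen by their titles. The tested arrays came from an E14tg2a line (strain 129/P2) with a dox-inducible Tcf15-E47 construct, 2 after 8 h with 1 µg/mL dox and 2 at 0 h. The other 4 came from the parental cells, also of strain 129/P2 but with no such construct in their labels, 2 after 8 h with the same dox and 2 at 0 h. All cells grew in GMEM with LIF and FCS. Another 4 arrays of the Tcf15-E47 line, at 12 and 24 h, entered the fit for the estimate of spread. RNA was amplified to biotin-labelled cRNA and hybridised to Illumina BeadChips. No label says that the 2 arrays of a group came from separate cultures or how many clones the inducible line stands for, so the p-values measure only the spread between these samples, which may be technical. The number of arrays limits the precision.

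Tcf15, a factor of early mesoderm and somites that embryonic stem cells also make, belongs to the basic helix-loop-helix (bHLH) family. E47 is a splice product of the gene Tcf3 and a general dimer partner of bHLH factors. Such dimers bind the E-box, CANNTG, while the Id proteins take up E proteins into dimers that cannot bind DNA, and a fusion of both partners makes a tied dimer. LIF and serum keep stem cells in a self-renewing state in which Nanog is one of the factors of naive pluripotency. Dox itself acts on cells without a construct, for example on mitochondrial translation, and here a parental line was sampled with the same drug.

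After subtraction of the parental response, Ccno was higher and Nanog was lower in the Tcf15-E47 cells at 8 h, each by about the same amount. Ccno encodes cyclin O, known for the centriole amplification of multiciliated cells. Its excess response was 0.62 ± 0.0841 on the log2 scale (SE; adjusted p = 0.0191), a 1.54-fold change. Nanog, the homeodomain factor of naive cells, had an excess response of −0.62 ± 0.0833 (SE; adjusted p = 0.0191), a 1.53-fold change downwards. Of 10894 genes tested, these were the only ones called at an adjusted p under 0.05, which is 0.00918% in each direction. At an unadjusted p under 0.05 there were 246 higher and 273 lower genes. Neither passed when parental 8 h replicate 2 was left out, although both estimates stayed within 0.01 of these values (0.62 ± 0.0978 for Ccno and −0.61 ± 0.0970 for Nanog; adjusted p = 0.159 for both). Neither was called without any 1 of the 4 Tcf15-E47 arrays or when only the 8 arrays compared entered the fit (adjusted p = 0.0652 for both), Nanog was not called without parental 0 h replicate 2, and Ccno was not called with median scaling of matched entries (adjusted p = 1), where Nanog was not measured. Since the induced factor is of the E-box family, windows of 300 bases around the annotated starts of these genes and of Prr19, next in rank, are shown for the E-boxes they hold. They are RefSeq sequences of build GRCm38.p6, with every CANNTG in capitals.
Ccno, chr13:112987552-112987851, plus strand: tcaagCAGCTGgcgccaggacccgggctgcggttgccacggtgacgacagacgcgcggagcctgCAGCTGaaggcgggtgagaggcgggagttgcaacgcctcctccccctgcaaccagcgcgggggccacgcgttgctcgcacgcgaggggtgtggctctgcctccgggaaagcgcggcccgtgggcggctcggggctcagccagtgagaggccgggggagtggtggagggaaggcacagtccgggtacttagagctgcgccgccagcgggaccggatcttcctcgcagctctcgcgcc
Prr19, chr7:25301109-25301408, plus strand: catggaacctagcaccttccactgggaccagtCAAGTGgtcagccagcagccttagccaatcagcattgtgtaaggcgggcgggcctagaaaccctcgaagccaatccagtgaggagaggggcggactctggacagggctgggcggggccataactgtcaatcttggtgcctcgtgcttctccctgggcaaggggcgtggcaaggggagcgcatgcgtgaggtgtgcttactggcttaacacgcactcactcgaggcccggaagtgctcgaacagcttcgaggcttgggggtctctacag
Nanog, chr6:122707315-122707614, plus strand, the downstream one of 2 listed starts: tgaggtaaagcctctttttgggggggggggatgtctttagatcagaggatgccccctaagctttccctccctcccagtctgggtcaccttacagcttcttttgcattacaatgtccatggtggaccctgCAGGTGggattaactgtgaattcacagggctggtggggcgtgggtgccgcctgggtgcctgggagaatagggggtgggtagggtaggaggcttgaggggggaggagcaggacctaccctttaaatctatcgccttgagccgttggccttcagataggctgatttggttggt
The Ccno window holds 2 E-boxes with the same letters, CAGCTG, which 16.3% of all 32851 windows of this length hold at least once. The share of windows with 2 of them was not computed. The window of Prr19 holds 1 E-box and that of Nanog also 1. The one of Nanog, CAGGTG, was found on either strand in 20.2% of the windows. The general pattern reads the same on both strands, and 72.3% of the windows hold it at least once, so these matches are common. These are matches of letters, and no binding was measured.

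The parental 8 h arrays differed from each other, and this touches every subtraction. Acta2, the smooth muscle actin, stood at 11.07 log2 units on parental 8 h replicate 2, against 6.91 on replicate 1. Bgn, a proteoglycan of connective tissue, stood at 9.67 on replicate 2 and 6.61 on replicate 1, and the growth factor Igf2 at 9.99 and 8.23. Of 8 fibroblast markers, 5 were detected (detection p under 0.01) on replicate 2 and 1 on replicate 1, and of 4 smooth muscle markers 3 and 2. The linear values of the smooth muscle markers summed to 2517 on replicate 2, against 378 to 427 on the other 11 arrays. Acta2 made up most of that sum, since Tagln and Myl9 were higher on replicate 2 than on replicate 1 by 0.38 and 0.47 log2 units and Cnn1 differed by −0.02. The linear values of the fibroblast markers summed to 1048 on replicate 2, against 848 to 894 on the others. Of these markers, Col1a1, Col1a2, Fbln2 and Tagln were detected on replicate 2 and on no other array. They read 7.05, 7.06, 7.03 and 6.87 there, against 6.49, 6.57, 6.60 and 6.49 on replicate 1. Acta2, Myl9, Dcn and Thy1 were detected on 5, 7, 9 and 12 arrays. Lum, Postn, Col3a1 and Cnn1 were not detected on any array. The stem cell markers were detected on all 12 arrays, 8 of the 8 on the platform. In these bulk RNA samples, fewer cells of a type and less RNA per cell cannot be told apart. The 2 arrays of a group had Pearson correlations of 0.9965 to 0.9982 over the genes tested, given as a description, with the lowest in the parental 0 h pair. That pair had 29 genes more than 0.5 log2 units apart, the parental 8 h pair 19, the Tcf15-E47 8 h pair 0 and the Tcf15-E47 0 h pair 3.

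**Figure D1:**
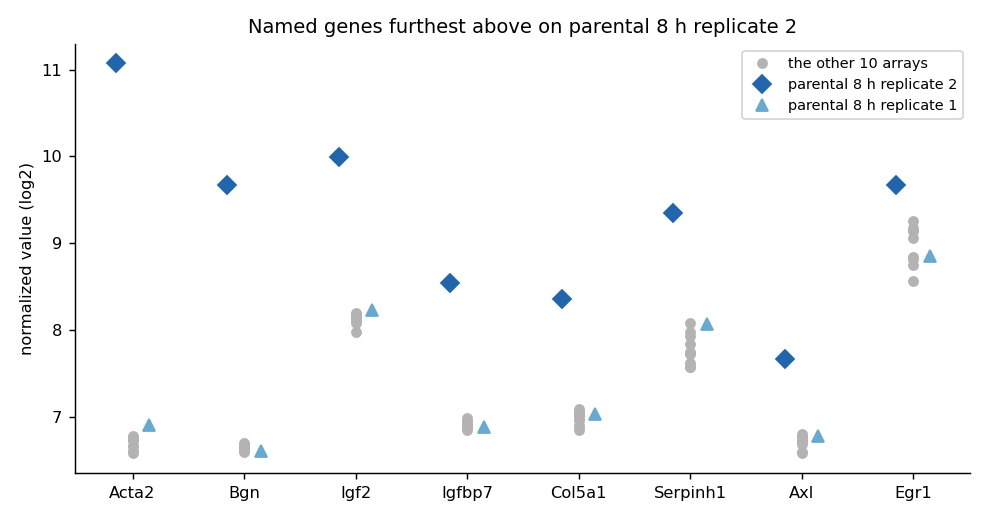
Normalized log2 values (y axis) of the 8 named genes with the largest excess of parental 8 h replicate 2 (diamonds) over replicate 1 (triangles), with the other 10 arrays as grey points. Acta2 reaches 11.07 on replicate 2 and 6.91 on replicate 1, where replicate 1 sits near the other arrays.

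For Ccno, measured by 1 probe (ILMN_2736471; gene at chr13:112987802-112990778), the Tcf15-E47 cells had 9.18 and 9.19 log2 units at 8 h, against 8.64 and 8.66 at 0 h. The parental cells had 8.30 and 8.30 at 8 h, against 8.45 and 8.32 at 0 h. Both Tcf15-E47 arrays at 8 h lay above all 6 others of the comparison, and the parental arrays at 8 h lay below those at 0 h. The response was 0.53 ± 0.0594 in Tcf15-E47 cells (SE; adjusted p = 0.00392) and −0.09 ± 0.0594 in parental cells (adjusted p = 0.898). At 8 h, Ccno was higher in Tcf15-E47 cells than in parental cells by 0.88 ± 0.0594 (adjusted p = 3.21e-06). Of that difference, 0.26 ± 0.0594 was already there at 0 h (adjusted p = 0.0173), and the excess response is the rest. The comparison of the lines called 2.31% of genes higher and 3.16% lower in Tcf15-E47 cells at 8 h, and 3.16% and 4.24% at 0 h. With parental 8 h replicate 1 alone, the difference in Ccno at 8 h had an adjusted p of 0.000214, where 0.395% of genes were called higher and 0.835% lower.

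For Nanog, the probe used (ILMN_2706623; gene at chr6:122707489-122714633) read 10.62 and 10.65 log2 units in Tcf15-E47 cells at 8 h, against 11.04 and 11.09 at 0 h. In parental cells it read 11.08 and 11.08 at 8 h, against 10.93 and 10.85 at 0 h. The arrays of the 2 lines moved apart: the Tcf15-E47 arrays at 8 h were the lowest of the 8, and the parental ones at 8 h lay above their own 0 h arrays. The response was −0.43 ± 0.0589 in Tcf15-E47 cells (SE; adjusted p = 0.0218) and 0.19 ± 0.0589 in parental cells (adjusted p = 0.806), so the uncalled parental change makes up part of the excess response. At 8 h, Nanog was lower in Tcf15-E47 cells by −0.44 ± 0.0589 (adjusted p = 0.000831), with 0.18 at 0 h (adjusted p = 0.0890). The 2 Nanog probes disagreed. The dimmer probe (ILMN_1245732) read 7.69 and 7.82 in Tcf15-E47 cells at 8 h, against 7.99 and 7.97 at 0 h. In parental cells it read 7.83 and 8.04 at 8 h, against 8.04 and 8.33 at 0 h. By that probe both lines were lower at 8 h, by −0.23 and −0.25, and the excess response was 0.02, or 0.12 with parental 8 h replicate 1 alone. The call on Nanog therefore rests on 1 probe.

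**Figure D2:**
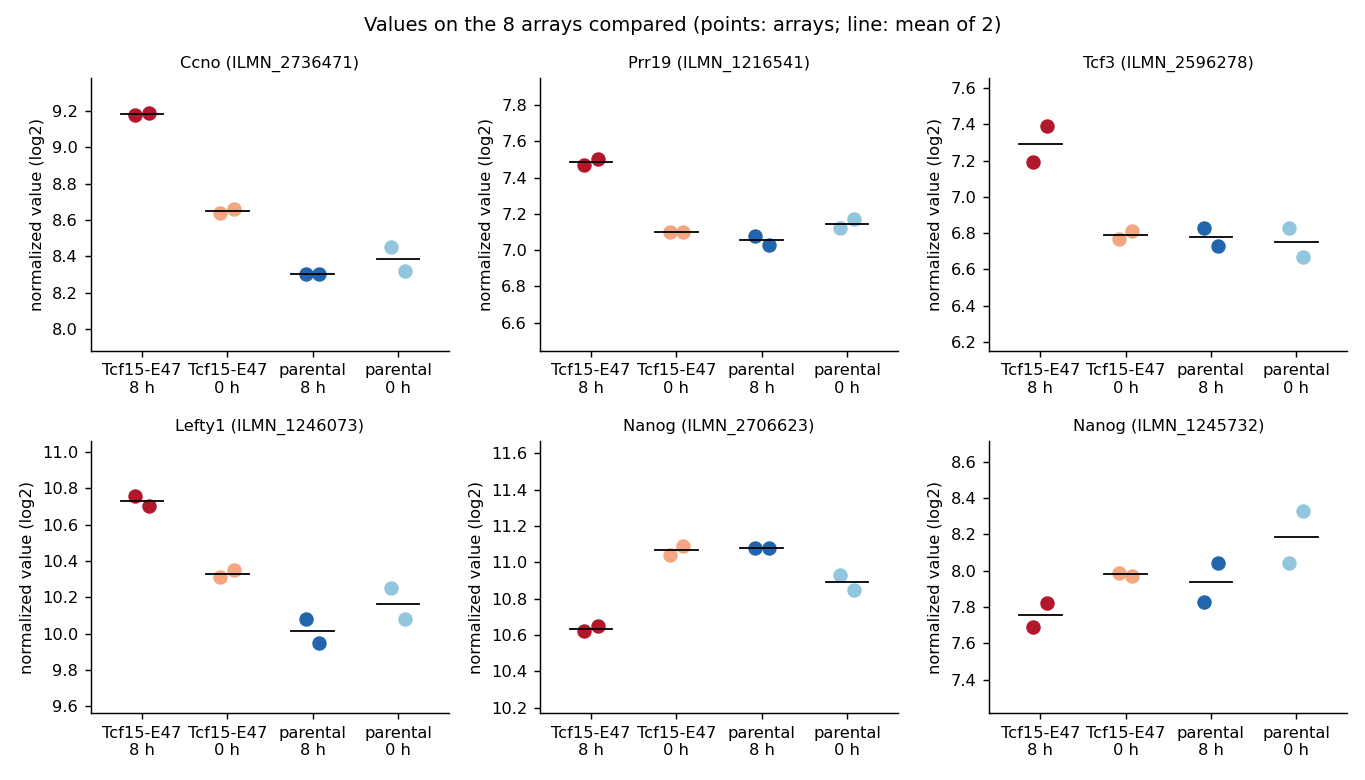
Normalized log2 values (y axis, a span of the same height in every panel) on the 8 arrays compared, with points for arrays and a line for the mean of 2. Ccno, Prr19, Tcf3 and Lefty1 are highest in the Tcf15-E47 cells at 8 h, whereas the 2 Nanog probes differ in the parental cells, by 0.19 and −0.25 between 8 h and 0 h.

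Prr19, known from mouse spermatocytes as a factor of meiotic crossover formation, ranked next among the higher genes, but its excess response was not called. It had 7.47 and 7.50 log2 units in Tcf15-E47 cells at 8 h, against 7.10 and 7.10 at 0 h (ILMN_1216541; gene at chr7:25301359-25304140). Parental cells had 7.08 and 7.03 at 8 h, against 7.12 and 7.17 at 0 h. The Tcf15-E47 arrays at 8 h lay above the 6 others, which spanned 7.03 to 7.17. The excess response was 0.48 ± 0.0835 (SE; adjusted p = 0.199), or 0.45 ± 0.0957 with parental 8 h replicate 1 alone (adjusted p = 0.870). At 8 h, Prr19 was higher in Tcf15-E47 cells than in parental cells by 0.43 ± 0.0590 (adjusted p = 0.00101), with −0.05 at 0 h (adjusted p = 0.714). In Tcf15-E47 cells alone Prr19 rose by 0.39 ± 0.0590 (adjusted p = 0.0372). That comparison called 3 genes higher (0.0275% of those tested), Ccno, Gadd45g and Prr19, and 1 lower (0.00918%), Nanog. When parental 8 h replicate 2 was left out of the fit, Ccno alone remained called (adjusted p = 0.0128), with 0.0757 for Prr19, 0.0684 for Gadd45g and 0.0575 for Nanog, and without any 1 of the 4 Tcf15-E47 arrays 0 were called. A second and dimmer Prr19 probe (ILMN_2936933) read between 6.48 and 6.68 on the 8 arrays and gave an excess response of 0.10.

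The deposited values still contain background signal, which shrinks the differences of dim genes. With background-corrected signals recovered for all probes, an alternative chosen after seeing the data, the excess response of Prr19 was 0.95, of Tcf3 1.10, of Ccno 0.75 and of Nanog −0.64. None of these passed, with adjusted p = 0.236 for Prr19, Ccno and Nanog and 0.783 for Tcf3.

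Of the partners joined in the construct, Tcf3 was highest in the induced line at 8 h, although its excess response was not called. The Tcf15 probe was nearly flat. Tcf3 had 7.19 and 7.39 log2 units in Tcf15-E47 cells at 8 h, against 6.77 and 6.81 at 0 h (ILMN_2596278). Parental cells had 6.83 and 6.73 at 8 h, against 6.83 and 6.67 at 0 h. At 8 h itself Tcf3 was higher in Tcf15-E47 cells than in parental cells by 0.51 ± 0.0868 (SE; adjusted p = 0.00433). At 0 h that difference was 0.04 (adjusted p = 0.843), and with parental 8 h replicate 1 alone the 8 h value was 0.46. The Tcf15-E47 arrays at 8 h lay above all the others, and the excess response of 0.47 ± 0.123 was not called (SE; adjusted p = 0.979; 0.42 with parental 8 h replicate 1 alone). A second Tcf3 probe gave 0.41, and 0.36 with replicate 1 alone. In the authors' deposited table that second probe differed between 8 h and 0 h in Tcf15-E47 cells with an adjusted p of 0.0185. The Tcf15 probe (ILMN_1231030) read 10.15 and 10.03 in Tcf15-E47 cells at 8 h, against 10.05 and 10.07 at 0 h, and these groups overlapped. Parental cells had a mean of 10.08 at 8 h, against 10.21 at 0 h, with an excess response of 0.16 ± 0.0941 (adjusted p = 0.979). Where the probes lie relative to the fused transcript was not analysed here, so a flat Tcf15 probe checks nothing about the induction.

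No inhibitor or relative of the E proteins was called. Id1 had an excess response of 0.21, Id2 of 0.25 and Id3 of 0.25, none of them called (adjusted p = 0.979 each). With 1 array left out, Id1 ran from 0.04 (without Tcf15-E47 0 h replicate 2) to 0.38 (without Tcf15-E47 0 h replicate 1) and Id2 from 0.16 to 0.34, and the other 2 Id2 probes gave 0.22 and 0.07. Id3 had 7.98 and 7.96 log2 units in Tcf15-E47 cells at 8 h, against 7.68 and 7.62 at 0 h. Parental cells had 7.79 and 7.75 at 8 h, against 7.65 and 7.76 at 0 h. The parental groups overlapped and the Tcf15-E47 groups did not. Hes6, which counteracts the Notch effector Hes1, had 8.79 and 8.77 in Tcf15-E47 cells at 8 h, against 8.42 and 8.39 at 0 h, and an excess response of 0.46 ± 0.110 (SE; adjusted p = 0.927). Its other 2 probes gave 0.40 and 0.11. Over the list of bHLH factors and Id inhibitors, 14 of 19 entries were tested, 0 were called and 8 were positive, with a median of 0.07. The median over all genes tested was 0.0025, with 5562 of the 10894 positive.

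Among signalling genes, Lefty1, a secreted inhibitor of NODAL, ranked after Ccno and Prr19 with all arrays. With parental 8 h replicate 1 alone it ranked after Pdpn and Bag3 as well. It had 10.76 and 10.70 log2 units in Tcf15-E47 cells at 8 h, against 10.31 and 10.35 at 0 h. Parental cells had 10.08 and 9.95 at 8 h, against 10.25 and 10.08 at 0 h. The excess response of 0.55 ± 0.0985 was not called (SE; adjusted p = 0.199; 0.48 ± 0.107 with parental 8 h replicate 1 alone), and −0.15 of the parental line went into it. At 8 h itself Lefty1 was higher in Tcf15-E47 cells than in parental cells by 0.72 ± 0.0697 (adjusted p = 6.94e-05), with 0.17 at 0 h (adjusted p = 0.166). Gadd45g, a stress sensor that acts on MAP kinase signalling, rose in Tcf15-E47 cells by 0.61 ± 0.0876 (adjusted p = 0.0264, or 0.0684 without parental 8 h replicate 2), with 9.49 and 9.45 at 8 h, against 8.98 and 8.75 at 0 h. Parental cells had 8.76 and 8.73 at 8 h, against 8.44 and 8.68 at 0 h, also higher at 8 h. The excess response of Gadd45g was thus smaller than its response, 0.42 ± 0.124 (adjusted p = 0.979).

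The 10 highest- and the 10 lowest-ranked genes, filled up with uncalled genes by their p, differed in which line had the larger response. No parental response was called. Ranking by the excess response favours genes whose lines moved in opposite directions, and in all 20 they did, so that is a description. Among the 10 higher genes the response in Tcf15-E47 cells was the larger one in 9, with values of 0.20 to 0.53 in Tcf15-E47 cells and −0.22 to −0.09 in parental cells. Besides Ccno, Prr19, Lefty1 and Hes6 these were the SUMO protease gene Senp1 (0.42), the membrane glycoprotein gene Pdpn (0.42), the lipid phosphatase gene Plpp3 (0.48), the HSP70 co-chaperone gene Bag3 (0.40), Eva1b (0.50) and the splicing gene Snrnp70 (0.46). Among the 10 lower genes the response in Tcf15-E47 cells was the larger one in only 3, with values of −0.43 to −0.04 in Tcf15-E47 cells and 0.13 to 0.49 in parental cells. Besides Nanog these were Gm4832 (−0.53), the ubiquitin ligase gene Rbbp6 (−0.43), the phosphate transporter gene Slc20a1 (−0.52), Wdr73 (−0.39), the splicing speckle gene Srrm2 (−0.32), the centriole cap gene Ccp110 (−0.35), Trim59 (−0.29), the phosphatase gene Ppp4c (−0.35) and Loxl1 (−0.48), an enzyme that cross-links elastin. Their adjusted p ran up to 0.979, and none apart from Nanog and Ccno was called. Rbbp6, Slc20a1, Ccp110 and Trim59 were higher in Tcf15-E47 than in parental cells at 0 h, by 0.35, 0.44, 0.30 and 0.26 (adjusted p = 0.0104 to 0.0164). At 8 h they differed by −0.09, −0.08, −0.05 and −0.03. Nanog and Gm4832 went from 0.18 and 0.25 at 0 h to −0.44 and −0.28 at 8 h. Wdr73, Srrm2, Ppp4c and Loxl1 differed by 0.02, 0.06, 0.12 and −0.07 at 0 h. At 8 h these differed by −0.37, −0.26, −0.23 and −0.55. Other probes gave excess responses of −0.07 for Eva1b, −0.02 for Plpp3, 0.14 for Senp1, 0.09 for Rbbp6, 0.02 for Slc20a1 and −0.10 for Wdr73, on dimmer signals. A second Ccp110 probe of about the same brightness gave −0.09, and a second Trim59 probe gave −0.28, close to the −0.29 of the probe used. Ranked with parental 8 h replicate 1 alone, the Tcf15-E47 response was the larger one in 7 of 10 higher genes. Of the 10 lower genes of that ranking, it was the larger one in 2.

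**Figure D3:**
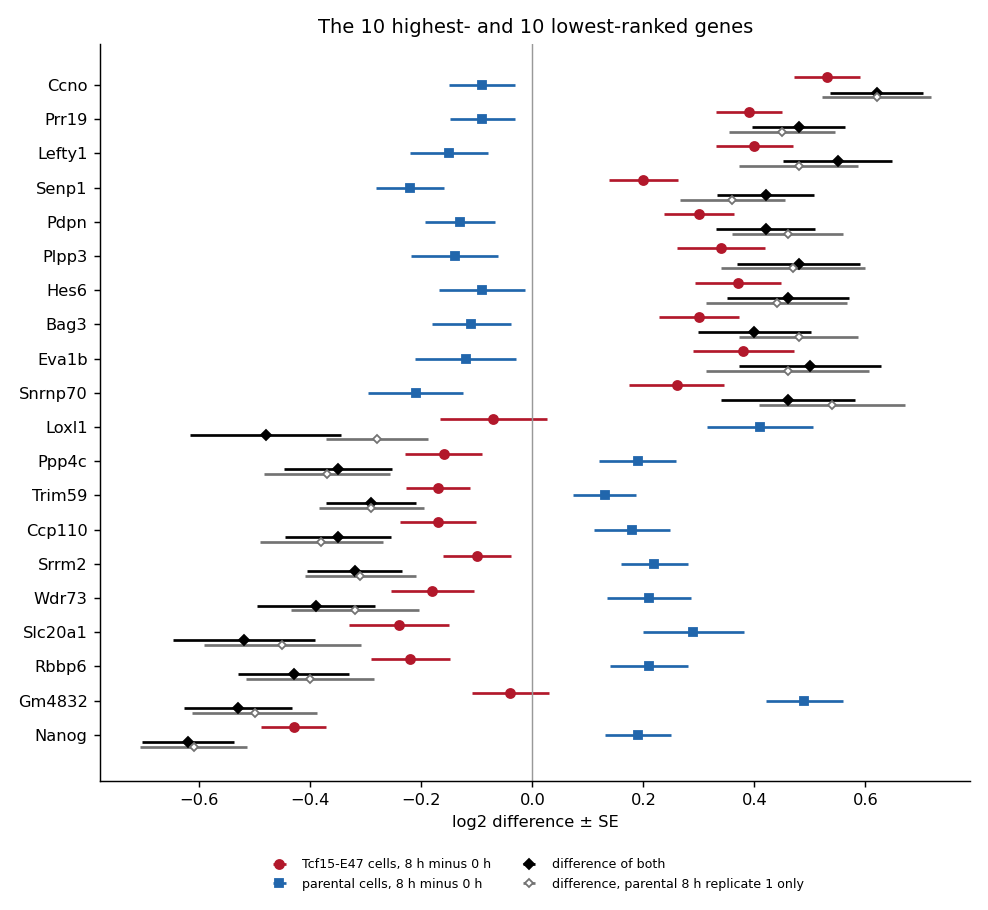
Log2 differences with their SE (x axis) for the 10 highest- and 10 lowest-ranked genes (y axis): the response of Tcf15-E47 cells (circles), of parental cells (squares), the difference of both (filled diamonds) and the same with parental 8 h replicate 1 alone (open diamonds). In the upper 10 genes the circles lie to the right at 0.20 to 0.53, and in the lower 10 the squares lie to the right at 0.13 to 0.49.

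Gm4832 shows a negative value made on the parental side. It had 10.99 and 11.03 log2 units in Tcf15-E47 cells at 8 h, against 11.11 and 10.99 at 0 h. Parental cells had 11.26 and 11.32 at 8 h, against 10.71 and 10.89 at 0 h. The Tcf15-E47 groups overlapped and the parental groups did not, with responses of −0.04 and 0.49 (adjusted p = 0.999 and 0.0612). Loxl1 likewise had 7.09 and 7.01 in Tcf15-E47 cells at 8 h, against 7.13 and 7.10 at 0 h, whereas parental cells had 7.39 on replicate 1 and 7.81 on replicate 2 at 8 h, against 7.16 and 7.21 at 0 h. Its higher parental value fell on the array with the fibroblast and smooth muscle transcripts, and the excess response was −0.28 with replicate 1 alone. The part of those transcripts in the value with all arrays was not tested.

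With parental 8 h replicate 1 as the only parental 8 h array, 0 genes were called in either direction (0% of 10894 by limma; 212 higher and 222 lower at an unadjusted p under 0.05). That fit assumes that the lone array varies like the other groups. The excess response moved by more than 0.5 log2 units in 7 genes, 6 of them named, and all 7 were lower with all arrays. Acta2 stood at −0.13 without replicate 2, against −2.21 with all arrays, Bgn at 0.07 against −1.46 and Igf2 at −0.07 against −0.95. Igfbp7, Serpinh1 and Col5a1 were the others with a name, and none of the 7 was called in either fit. Of the 10 higher-ranked genes 8 were shared between the fits, which share 7 of the 8 arrays, but of the 10 lower-ranked only Nanog and Gm4832. Among the higher genes Atf2 (0.38), a transcription factor, and Ap2m1 (0.32), a subunit of the clathrin adaptor, took the places of Hes6 and Eva1b. Among the lower ones came Hnrnpd (−0.57), an RNA-binding protein of AU-rich elements, Atf4 (−0.68), the main transcription factor of the integrated stress response, and Acot13, Spr, Grcc10, 2410006H16Rik, 1700071K01Rik and Arid3a (−0.51 to −0.42). For Atf4, parental replicate 1 at 8 h read 10.72 and replicate 2 read 10.34, against 10.31 and 10.25 at 0 h. For Hnrnpd the same arrays read 7.99 and 7.63, against 7.65 and 7.61 at 0 h. In both genes the single high array was replicate 1, the only parental 8 h array of that fit. Acot13, Spr, Grcc10, 2410006H16Rik, 1700071K01Rik and Arid3a also read higher on replicate 1 than on replicate 2, for example 9.31 against 9.09 for Acot13. Atf2 and Ap2m1 read lower on replicate 1 than on replicate 2, at 9.41 against 9.70 and 9.28 against 9.47. Dimmer second probes gave −0.04 for Atf4 and −0.12 for Hnrnpd in that fit, and those of Atf2 gave −0.13 and −0.18. In Tcf15-E47 cells Atf4 had 10.40 and 10.25 at 8 h, against 10.59 and 10.52 at 0 h.

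The gene lists held 2 called members in all, Nanog and Ccno, and 0 with parental 8 h replicate 1 alone. In naive pluripotency, 16 of 16 entries were tested, Nanog was called lower, 0 were called higher and 7 were positive, with a median of −0.03, or 0.02 with parental 8 h replicate 1 alone. Among its other members, Tcl1, a co-activator of the kinase AKT, had an excess response of 0.26 and Klf4 of −0.03. General pluripotency had 10 of 12 entries tested, 0 called and 3 positive, with a median of −0.15 (−0.13 with replicate 1 alone). Lin28a, which blocks let-7 maturation, had −0.41 and L1td1 −0.28, both with adjusted p = 0.979. The core factors Pou5f1 (0.10) and Sox2 (−0.16) were not called, and each had a second probe with another value, 0.42 for Pou5f1 and 0.41 for Sox2. For that Sox2 probe the parental 0 h arrays read 7.54 and 8.19. The primed epiblast list had 8 of 11 tested, 0 called and 4 positive, with a median of 0.02, and in it Otx2 had 0.00 and Fgf5 0.13.

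**Figure D4:**
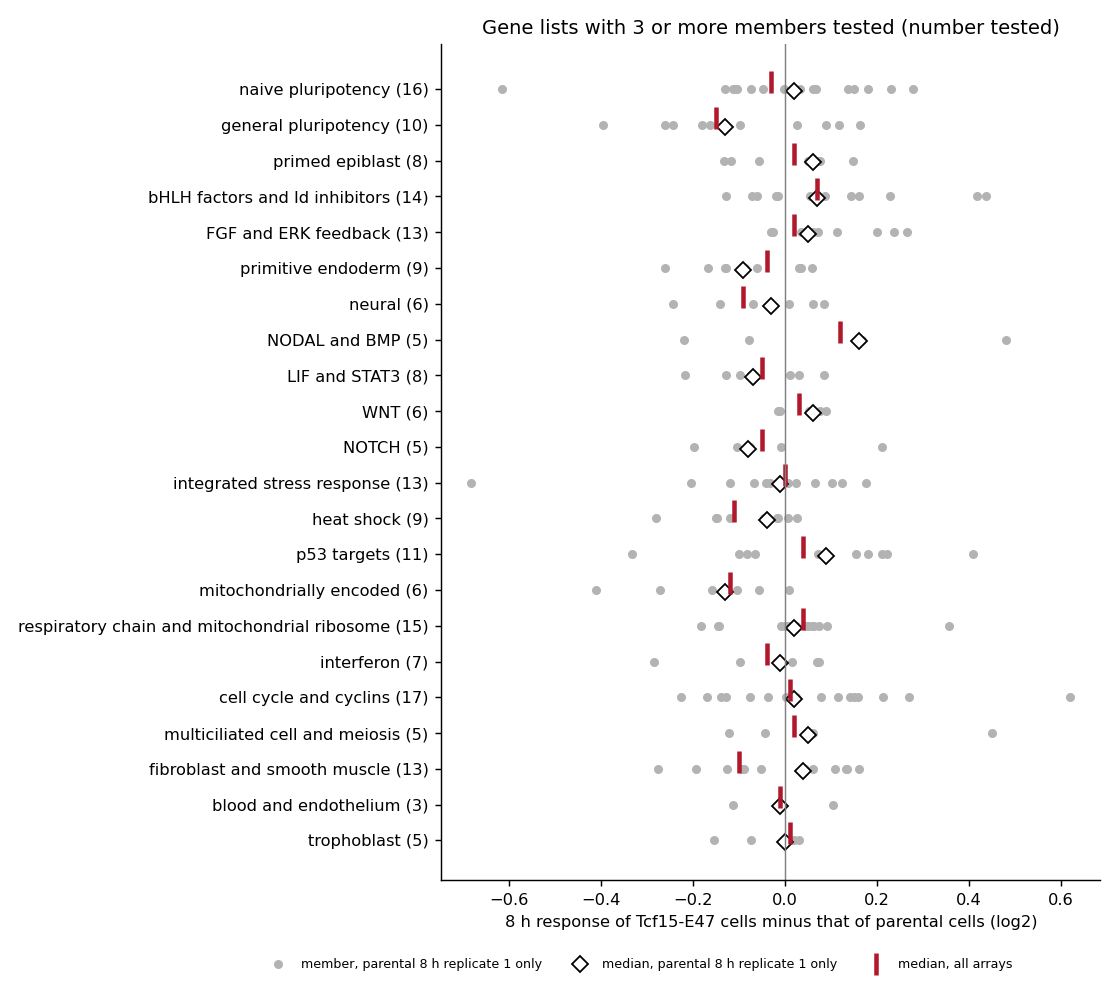
Excess responses (x axis, log2) of the tested members of each gene list with 3 or more of them (y axis, number tested in brackets), as grey points for the fit with parental 8 h replicate 1 alone, with the medians of that fit (diamonds) and of all arrays (bars). Ccno at 0.62, Nanog at −0.61 and Atf4 at −0.68 lie furthest out, and the bar and diamond of fibroblast and smooth muscle differ, at −0.10 and 0.04.

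In cell cycle and cyclins, Ccno was called higher and 17 of 21 entries were tested, with 9 positive and a median of 0.01. Its other members, which included Cdkn1c at 0.33 (0.21 with replicate 1 alone), Ccnd2 at 0.12, Ccna2 at −0.12 and Pcna at −0.23, were not called. The list of multiciliated cell and meiosis genes had 5 of 13 tested and 0 called, with 3 positive and a median of 0.02, and next to Prr19 it held Foxj1, the main factor of motile cilia, at −0.05. Among the NODAL and BMP genes, 5 of 11 were tested, 0 called and 3 positive (median 0.12), with Gdf3 at 0.12. FGF and ERK feedback genes numbered 13 tested of 15, 0 called and 9 positive (median 0.02), with Egr1 at −0.15, or 0.26 without the parental array on which it read 9.67. The LIF and STAT3 list had 8 of 9 tested, 0 called and 3 positive (median −0.05), WNT 6 of 12 with 0 called and 4 positive (median 0.03), and NOTCH 5 of 11 with 0 called and 1 positive (median −0.05), with Dll1 at 0.19.

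Stress and mitochondrial genes were listed because dox acts on mitochondrial translation, and their values too are excess responses, from which the parental response is subtracted. Of the mitochondrially encoded genes 6 were tested, 0 were called and 0 were positive, with a median of −0.12 (−0.13 with replicate 1 alone, 1 positive). COX2, a subunit of complex IV, had 11.55 and 11.84 log2 units in Tcf15-E47 cells at 8 h, against 11.66 and 11.96 at 0 h, and parental cells had 11.84 and 11.76 at 8 h, against 11.62 and 11.47 at 0 h. Its excess response of −0.37 ± 0.171 thus held a parental difference of 0.26, and it was not called (SE; adjusted p = 0.979). Nuclear genes of the respiratory chain and the mitochondrial ribosome had 15 of 19 tested, 0 called and 9 positive (median 0.04), with the mitochondrial elongation factor gene Tufm at 0.34. Heat shock genes had 9 of 11 tested, 0 called and 0 positive (median −0.11; −0.04 and 2 positive with replicate 1 alone), with Hspe1 at −0.28 and Hspa1a at −0.11. The integrated stress response list had 13 of 16 tested, 0 called and 6 positive (median 0.00), p53 targets 11 of 12 with 0 called and 7 positive (median 0.04), and interferon genes 7 of 13 with 0 called and 2 positive (median −0.04).

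Lists of other lineages had 0 called members. Primitive endoderm had 9 of 14 tested and 2 positive (median −0.04), with Sparc at −0.28. Neural genes had 6 of 10 tested and 2 positive (median −0.09), with Elavl3 at −0.19. Trophoblast genes had 5 of 10 tested and 4 positive (median 0.01), blood and endothelium 3 of 10 with 1 positive (median −0.01), and mesoderm and somite, where Tcf15 acts in the embryo, 1 of 14, Evx1 at 0.16. Fibroblast and smooth muscle genes had 13 of 29 tested and 2 positive (median −0.10), against 7 positive and a median of 0.04 with parental 8 h replicate 1 alone, where the lowest member stood at −0.28 instead of −2.21.

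The later times, which only the Tcf15-E47 line has, show where the genes of the excess response stood afterwards. The 8, 12 and 24 h values are all set against the same 0 h arrays, and the parental cells were sampled at 8 h only, so no parental response can be taken from the later values. Ccno had 9.63 and 9.55 log2 units at 12 h and 9.27 and 9.26 at 24 h, with differences from 0 h of 0.53 at 8 h, 0.94 at 12 h and 0.62 at 24 h (adjusted p = 0.00392, 9.72e-07 and 6.14e-05). Nanog had 9.93 and 10.05 at 12 h and 10.15 and 10.11 at 24 h, with differences of −0.43, −1.08 and −0.93 (adjusted p = 0.0218, 4.13e-07 and 9.1e-07). Prr19 had 8.08 and 8.14 at 12 h and 8.09 and 7.98 at 24 h, with differences of 0.39, 1.01 and 0.94 (adjusted p = 0.0372, 4.72e-07 and 9.1e-07). For these 3 genes the 8 h value was the smallest of the 3 differences. At 12 h 4.47% of genes were called higher and 5.07% lower, and at 24 h 2.29% and 2.90%.

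Lefty1 took another course. It had 10.06 and 10.02 log2 units at 12 h and 10.10 and 10.01 at 24 h, against 10.31 and 10.35 at 0 h. Both later values were lower than at 0 h, by −0.30 and −0.28 (adjusted p = 0.0166 and 0.0356), whereas the 8 h value was higher by 0.40 (adjusted p = 0.0979). Tcf3 had differences of 0.50, 0.60 and 0.37 (adjusted p = 0.0979, 0.000761 and 0.0256) and Hes6 of 0.37, 0.60 and 0.32 (adjusted p = 0.357, 0.000327 and 0.0311). Otx2, which had an excess response of 0.00 at 8 h, differed from 0 h by −0.02 at 8 h, 0.60 at 12 h and 0.54 at 24 h (adjusted p = 0.999, 0.000132 and 0.000630).

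**Figure D5:**
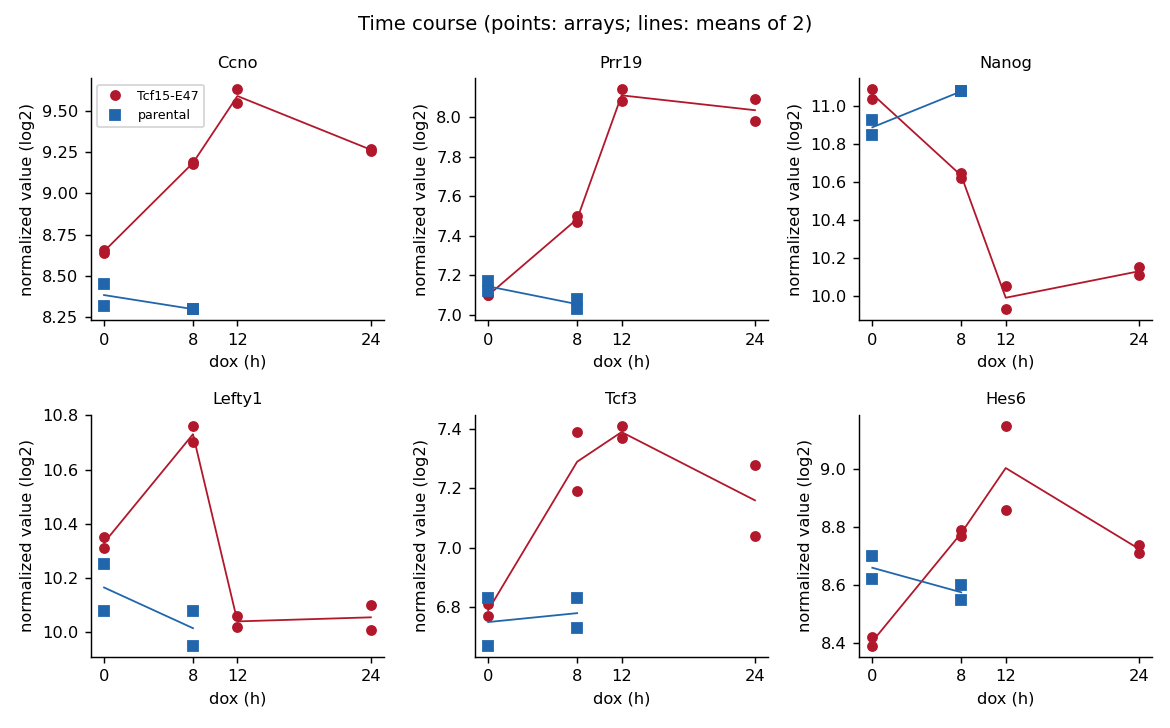
Normalized log2 values (y axis) over hours of dox (x axis) for Tcf15-E47 cells (circles) and parental cells (squares), with lines through the means of 2 arrays. Ccno and Prr19 are higher and Nanog is lower at every time after 0 h in Tcf15-E47 cells, while Lefty1 is above its 0 h value at 8 h (10.76 and 10.70) and below it at 12 and 24 h.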

How the data were processed

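The report compared 8 arrays in 4 groups of 2, within a fit over all 12. Per the file headers, the deposited non-normalized table holds bead signal intensity and a detection p-value for each of 30854 entries. The normalized values, on a log2 scale as deposited, share 1 distribution on every array, so they were quantile normalized, and they keep the background (limma, per the submitters' processing notes, no version). The authors' comparisons, as deposited, list a log2 fold change and an adjusted p-value for each probe, and the fold changes equal differences of group means within 5e-08.

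Probes at or above the 65th percentile (6.69 log2 units) on at least 2 arrays were kept (15113 of 38561). By the platform annotation 32093 probes name a single gene, 16 name several and 6452 have no name. The kept probe with the highest mean stood for its gene, and each unnamed probe counted as a gene of its own, giving 9161 named and 1733 unnamed genes. Group means were fitted with limma 3.58.1 in R 4.3.3 (eBayes, two-sided moderated test; 6 residual and 7.97 prior degrees of freedom), with Benjamini-Hochberg adjustment over all 10894 genes and calls at an adjusted p under 0.05. The fit was tested on simulated data. The repeat left out parental 8 h replicate 2.

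Entry names of the non-normalized table matched 0 probes, so 16930 entries were matched to probes by value and curves from value to signal gave each probe's signal and detection p. Of the probes 30.7% to 34.7% were detected per array, so dim genes lie near the background and are measured less precisely. Replicate numbers were not treated as pairs in the main fit. The correlation of deviations between groups ran from −0.153 to 0.234, with 0.176 between the Tcf15-E47 0 h and 8 h groups, which does not settle whether they pair samples.

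Named are the 10 genes per direction and fit, by called status and then smallest p, the genes Prr19, Ccno, Nanog, Tcf3, Tcf15, Id1, Id2, Id3, Pou5f1, Sox2, Otx2 and Fgf5, and up to 4 called or 2 uncalled members of each of 23 lists. Gadd45g also falls under its list. Genes named beyond this were chosen after their values were seen. The members, lists and tests were chosen with earlier results of these data known. Alternatives covered filters, moderation, weights, probes, scaling, the replicate block and each array left out. Weights came out equal for both arrays of a group (1.14 for each parental 8 h array), so they could not set replicate 2 apart.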

Additional observations from a re-analysis of the deposited data

Results flagged for a closer look

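The difference between the lines in the 8 h response was itself tested, and it passed in 2 genes. For Ccno it was 0.62 (adjusted p = 0.0191), with the Tcf15-E47 arrays higher at 8 h in 2 of 2 and the parental arrays below their 0 h values in 2 of 2. For Nanog it was −0.62 (adjusted p = 0.0191), with the Tcf15-E47 arrays lower at 8 h in 2 of 2 and the parental arrays higher in 2 of 2. These counts of arrays restate the tested values. Neither call held with only the 8 arrays compared (adjusted p = 0.0652 for both) or with parental 8 h replicate 1 alone. A second Nanog probe gave 0.02. The groups have 2 arrays each, so no array could be tested as an outlier within its group.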

How the results depend on the processing

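With 2 arrays per group, counts of calls moved easily. The Ccno and Nanog estimates kept their direction under every alternative that measured them with the probe used, but the second Nanog probe gave 0.02. With both parental 8 h arrays kept, filters, moderation, weights, the replicate block and the fit of only 8 arrays cannot change these estimates. They stayed at 0.62 and −0.62 there, which says nothing about their stability. Only rescaled signals and arrays left out could change them. Median scaling or background correction gave 0.61 to 0.81 for Ccno, and background-corrected recovered signals gave −0.64 for Nanog. The excess response called 0 higher and 0 lower genes with only the 8 arrays (adjusted p = 0.0652 for both genes), with median scaling and with background-corrected recovered signals, and 1 higher and 0 lower with background-corrected matched entries. Nanog was not among the matched entries, so it could not be called there. With each array left out in turn it called 0 to 10 higher and 0 to 11 lower genes: 10 and 4 without parental 0 h replicate 1, 1 and 0 without parental 0 h replicate 2, 1 and 11 without parental 8 h replicate 1, and 0 and 0 without parental 8 h replicate 2 or any single Tcf15-E47 array. Slc20a1 was then called at −0.68 (without parental 0 h replicate 1) and Loxl1 at −0.69 (without parental 8 h replicate 1). With parental 8 h replicate 1 alone it called 0 to 1 higher and 0 to 0 lower, and without that array it could not be fitted, since no parental 8 h array was left. The response of Tcf15-E47 cells called 5 higher with array weights and with every kept probe, 1 higher and 0 lower with background-corrected matched entries, 0 and 0 with median scaling and with recovered signals, and 0 to 4 higher and 0 to 1 lower with an array left out. The parental response called 1 higher with the 80th percentile filter and with trend and robust moderation, and 0 to 20 higher and 0 to 33 lower with an array left out, the highest counts coming without parental 8 h replicate 1 and without parental 0 h replicate 1. Values near 0 changed sign: Otx2 was 0.01 with matched entries (background-corrected or median-scaled), −0.09 to 0.09 with an array left out, and −0.01 to 0.16 so in the fit on parental 8 h replicate 1 alone, where Id1 was −0.02 to 0.31, the lowest without Tcf15-E47 0 h replicate 2. Without parental 8 h replicate 1, replicate 2 was the only parental 8 h array. The excess response was then −4.29 for Acta2, −2.99 for Bgn and −1.83 for Igf2, genes that stood higher on replicate 2 than on replicate 1. The cause of the changes under these alternatives was not tested. With the replicate number as a block the excess response called 1 higher and 1 lower gene (adjusted p = 0.0363 for both), and the response of Tcf15-E47 cells called 2 higher genes, against 3 without the block. With an array left out, Ccno was called in 3 of 8 fits and Nanog in 2 of 8.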
